A study of Mus musculus with 20 samples.

Results

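The genes described here are 10 markers of adult neurogenesis, the birth of new granule neurons in the dentate gyrus of the hippocampus: Nes, Eomes, Mki67, Top2a, Cdc45, Neurod1, Sox11, Dcx, Igfbpl1 and Draxin. They were taken by gene symbol from a table of 25190 genes, in which each of the 10 symbols named 1 protein-coding gene. RNA was sequenced from the hippocampus of 20 wild-type C57BL/6JOlaHsd male mice, 4 months old by their labels and 3 to 4 months by the study's methods. All mice carried bilateral cannulas, through which fluid was infused into the dorsal hippocampus. Vehicle mice (n = 5) received artificial cerebrospinal fluid, Control mice (n = 5) received small RNAs (sRNAs) pooled from the hippocampi of people without a psychiatric illness, and Pool 1 and Pool 2 mice (n = 5 each) received sRNAs pooled from 2 separate groups of patients with schizophrenia. Each of the 3 groups given RNA received 1 pool, so that the effect of a pool and that of the diagnosis cannot be told apart. The tissue was taken 24 hours after the last behavioural test. The sample labels name hippocampal tissue, whereas the description of the series names CA1, a hippocampal field without dentate granule cells. All 10 markers of dentate granule cells were detected in every library, with a summed level of 416 to 1115 CPM (the count of a gene as a share of its library, in millionths, scaled for library composition), beside 415 to 1100 CPM for 5 markers of CA1 pyramidal neurons. The libraries therefore held RNA of the region where adult neurogenesis takes place.

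In the adult dentate gyrus, radial glia-like stem cells divide to give intermediate progenitors, which divide again and produce neuroblasts. Neuroblasts leave the cell cycle, pass through a stage as immature neurons and join the granule cell layer, and each stage switches on its own genes. These cells are rare in adult tissue, so in bulk RNA their genes are diluted by those of mature neurons and glia. In bulk samples, fewer cells of a type and less RNA per cell cannot be told apart.

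Libraries held 20588280 to 25543939 counts in total, and a count of 3, taken as the floor, corresponded to 0.117 to 0.146 CPM. Some libraries stood apart in markers of other cells. Pool 2 replicate 1 had the highest summed level of leukocyte markers, 13.5 CPM against at most 2.42 CPM in any other group, and of microglial markers, 568 CPM against at most 313 CPM. Vehicle replicate 4 had 9005 CPM of choroid plexus markers, against at most 2293 CPM in the other groups. Pool 2 replicate 1 also had the highest level of interferon response markers, 109 CPM against at most 29.9 CPM in any other library, and of reactive astrocyte markers, 1797 CPM against at most 1234 CPM. Pool 2 replicate 4 had 468 CPM of thalamus markers, against at most 200 CPM in the other groups and 264 CPM in the other Pool 2 mice.

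None of the 10 genes had a mean under 1 CPM over the 20 libraries, and the lowest count of any of them was 4, above the floor. The 5 lowest were Eomes (1.05 ± 1.07 CPM, SD, n = 20), Draxin (1.38 ± 0.557), Mki67 (1.68 ± 0.648), Cdc45 (2.02 ± 0.430) and Top2a (2.10 ± 0.739). Eomes was over 1 CPM in its mean only through Vehicle replicate 1. Without that library its mean was 0.832 CPM, and its median over the 20 libraries was 0.775 CPM. By group, Eomes had a mean under 1 CPM in Control mice (0.893 CPM) and Pool 1 mice (0.637 CPM). Its counts ranged from 4 to 121 per library, those of Mki67 from 7 to 71, those of Draxin from 13 to 66, those of Top2a from 21 to 80 and those of Cdc45 from 26 to 67. Fold changes of these 5 genes therefore rest on few reads. Dcx had 177 to 753 counts, Neurod1 245 to 848, Sox11 197 to 658, Nes 118 to 351 and Igfbpl1 20 to 179. In Pool 1 mice Igfbpl1 had 20 to 91 counts, so its fold changes in comparisons with that group rest on few reads too.

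Levels were compared between genes per kilobase of exon. Neurod1 was the highest, at 7.13 ± 2.19 CPM per kb (SD, n = 20), above 75.8% of all genes in the table. Sox11 followed with 1.99 ± 0.556, Nes with 1.67 ± 0.351, Dcx with 1.67 ± 0.453 and Igfbpl1 with 1.14 ± 0.558 CPM per kb, and neighbours among these 4 genes differed by less than the larger of their SDs. Cdc45 had 0.575 ± 0.123 CPM per kb. Draxin (0.266 ± 0.107), Eomes (0.252 ± 0.258), Top2a (0.232 ± 0.0820) and Mki67 (0.167 ± 0.0644) were the lowest, and neighbours at this end of the order also differed by less than the larger of their SDs. The gaps from Neurod1 to Sox11, from Igfbpl1 to Cdc45 and from Cdc45 to Draxin were larger than both SDs. Mki67 lay above 28% of all genes.

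**Figure D1:**
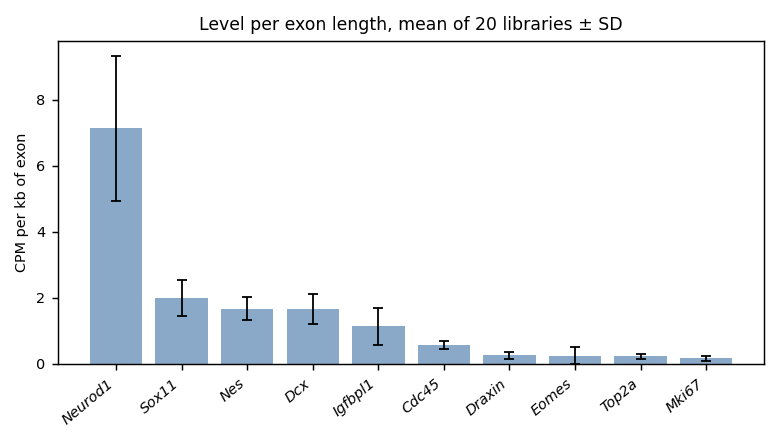
Level of the 10 genes in CPM per kb of exon, with bars for the mean of 20 libraries and error bars for the SD. Neurod1 (7.13 CPM per kb) stands above the other genes, which lie between 0.167 (Mki67) and 1.99 (Sox11).

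Nes (ENSMUSG00000004891.16; GRCm38 chr3:87971078-87980451, plus strand) encodes nestin, an intermediate filament protein of radial glia-like stem cells that vascular cells also make. Its level was 12.2 ± 2.59 CPM in Vehicle, 9.73 ± 3.26 in Control, 10.2 ± 0.725 in Pool 1 and 10.8 ± 1.40 in Pool 2 mice (SD, n = 5 each). The widest group was Control, with 13.3, 7.26, 5.43, 11.4 and 11.2 CPM in replicates 1 to 5. All 5 Pool 1 mice and all 5 Pool 2 mice lay inside the range of the Control mice.

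The cell cycle genes mark dividing progenitors, but also any other dividing cell in the tissue. Mki67 (ENSMUSG00000031004.8; chr7:135689784-135716361, minus strand) encodes the proliferation marker Ki-67, which coats mitotic chromosomes. Its levels in replicates 1 to 5 were 2.23, 2.55, 1.66, 1.18 and 1.86 CPM in Vehicle mice and 1.79, 2.26, 1.98, 1.27 and 1.24 CPM in Control mice. In Pool 1 mice they were 1.17, 1.03, 1.84, 1.68 and 0.291 CPM, and in Pool 2 mice 3.24, 2.26, 1.42, 1.34 and 1.20 CPM. Pool 1 replicate 5 was the lowest of the 20 libraries, Pool 2 replicate 1 was the highest, and all groups overlapped.

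Top2a (ENSMUSG00000020914.17; chr11:98992943-99024189, minus strand) encodes DNA topoisomerase 2-alpha, which untangles DNA in dividing cells. Its levels were 3.12, 2.64, 1.61, 1.23 and 1.91 CPM in Vehicle and 3.35, 2.74, 2.35, 1.71 and 1.33 CPM in Control replicates 1 to 5. They were 1.82, 1.52, 2.18, 1.90 and 0.872 CPM in Pool 1 and 3.38, 3.12, 1.96, 1.71 and 1.46 CPM in Pool 2 mice. As for Mki67, Pool 1 replicate 5 was the lowest library and Pool 2 replicate 1 the highest. Cdc45 (ENSMUSG00000000028.15; chr16:18780447-18811987, minus strand) encodes a subunit of the helicase that opens DNA at replication forks. Its group means lay close together, from 1.87 ± 0.519 CPM in Vehicle to 2.10 ± 0.478 CPM in Pool 1 mice, and Pool 1 replicate 5, the lowest library for Mki67 and Top2a, had the second highest Cdc45 level of all, 2.57 CPM.

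Mki67 and Top2a followed each other closely over the libraries and Cdc45 did not follow them, as given below, so the bases upstream of these 3 genes are shown. Each is the 250 bases before the RefSeq start of the gene on its own strand (RefSeq, GRCm38.p6). Capitals mark TTTGAA (the cell cycle homology region, CHR) and CCAAT boxes, on either strand.
Mki67, chr7:135716380-135716629, minus strand: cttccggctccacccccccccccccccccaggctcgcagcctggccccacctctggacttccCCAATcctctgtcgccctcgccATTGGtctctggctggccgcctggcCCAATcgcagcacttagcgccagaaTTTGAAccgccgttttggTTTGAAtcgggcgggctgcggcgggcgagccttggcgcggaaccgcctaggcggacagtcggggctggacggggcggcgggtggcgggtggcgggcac
Top2a, chr11:99024190-99024439, minus strand: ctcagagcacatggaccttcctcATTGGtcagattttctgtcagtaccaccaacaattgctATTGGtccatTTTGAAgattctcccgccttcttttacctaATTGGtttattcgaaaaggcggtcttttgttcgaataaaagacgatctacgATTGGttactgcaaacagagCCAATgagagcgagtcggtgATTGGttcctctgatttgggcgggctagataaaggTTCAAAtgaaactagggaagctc
Cdc45, chr16:18811973-18812222, minus strand: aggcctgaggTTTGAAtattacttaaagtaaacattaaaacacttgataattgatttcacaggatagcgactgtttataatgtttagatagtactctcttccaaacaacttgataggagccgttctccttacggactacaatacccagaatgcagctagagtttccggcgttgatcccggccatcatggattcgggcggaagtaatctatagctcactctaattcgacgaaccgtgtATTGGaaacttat
The Mki67 window held TTTGAA at positions -116 and -98 from the start and 3 CCAAT boxes, and the Top2a window held TTTGAA at -179 and, on the opposite strand, at -23, with 6 CCAAT boxes. The Cdc45 window held 1 of each, at -240 and -13. Over 32851 promoter windows of this length, 16% held TTTGAA and 33.8% held CCAAT on either strand. None of the E2F words TTTCGCGC, TTTGGCGC, TTTCCCGC and TTTGCCGC, at least 1 of which was in 1.86% of all windows, was found in any window of the 9 genes with an entry in the table (all but Igfbpl1). The marked words did not overlap each other, and a match of letters is a description of the window, not a site of binding.

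Eomes (ENSMUSG00000032446.14; chr9:118478212-118486132, plus strand) encodes the T-box factor Tbr2 of intermediate progenitors. Vehicle replicate 1 had 5.10 CPM, whereas Vehicle replicates 2 to 5 had 0.693, 0.565, 0.746 and 0.698 CPM. Control replicates 1 to 5 had 0.805, 1.07, 0.875, 0.477 and 1.24 CPM. The pools were split among their own mice, with 0.971, 0.224, 0.194, 1.42 and 0.374 CPM in Pool 1 and 2.06, 1.48, 1.33, 0.334 and 0.258 CPM in Pool 2. Its SD over the 20 libraries was 1.03 times its mean, which rested on Vehicle replicate 1: without it, the mean was 0.832 CPM and the SD 0.504 CPM, or 0.605 times the mean.

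Neurod1 (ENSMUSG00000034701.9; chr2:79452521-79456751, minus strand) encodes a basic helix-loop-helix factor that new granule neurons need to mature and that mature granule neurons keep. Its levels were 17.4, 16.9, 13.8, 17.3 and 18.1 CPM in Vehicle and 14.4, 19.2, 19.5, 23.1 and 37.5 CPM in Control replicates 1 to 5. They were 27.5, 15.1, 15.5, 19.95 and 10.2 CPM in Pool 1 and 19.1, 26.6, 17.3, 23.4 and 17.2 CPM in Pool 2 mice. Vehicle mice were close together and 4 of the 5 Control mice lay above all of them. Sox11 (ENSMUSG00000063632.6; chr12:27334264-27342574, minus strand) encodes a SoxC factor of neuroblasts and immature neurons. Its group means were 16.7 ± 4.42 CPM in Vehicle, 18.4 ± 6.08 in Control, 14.2 ± 4.23 in Pool 1 and 16.9 ± 3.96 in Pool 2 mice. The same 2 libraries were the extremes of both genes: Control replicate 5 was the highest (Sox11 29.1 CPM) and Pool 1 replicate 5 the lowest (Sox11 8.18 CPM).

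The windows upstream of these 2 factors are shown because their levels moved together over the libraries. Capitals mark CATATG, an E-box word of NEUROD factors (CAGATG was searched as well), TTTGAA and CCAAT, on either strand.
Neurod1, chr2:79456637-79456886, minus strand: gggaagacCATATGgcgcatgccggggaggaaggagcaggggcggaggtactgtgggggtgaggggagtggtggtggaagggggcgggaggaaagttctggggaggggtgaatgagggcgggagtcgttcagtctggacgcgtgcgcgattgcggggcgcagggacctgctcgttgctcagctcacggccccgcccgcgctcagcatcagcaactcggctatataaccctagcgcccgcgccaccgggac
Sox11, chr12:27342719-27342968, minus strand: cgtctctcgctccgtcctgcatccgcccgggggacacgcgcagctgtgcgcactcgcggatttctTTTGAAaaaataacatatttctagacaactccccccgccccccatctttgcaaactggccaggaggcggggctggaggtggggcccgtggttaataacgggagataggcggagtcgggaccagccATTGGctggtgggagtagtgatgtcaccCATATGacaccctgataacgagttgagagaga
CATATG stood at -242 in the Neurod1 window and at -32 in the Sox11 window, and no other window of the 9 genes held either E-box word. Of all promoter windows, 17.3% held at least 1 of them. Here too a match of letters only describes the window, and a part of these words in the levels was not tested.

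Dcx (ENSMUSG00000031285.14; chrX:143855842-143933311, minus strand) encodes doublecortin, a microtubule-associated protein of migrating neuroblasts and immature neurons. Its levels were 25.1, 20.4, 22.6, 22.3 and 19.8 CPM in Vehicle and 7.91, 15.7, 22.3, 28.1 and 33.3 CPM in Control replicates 1 to 5. They were 20.1, 21.0, 21.4, 23.4 and 11.2 CPM in Pool 1 and 16.3, 28.6, 24.1, 18.9 and 19.5 CPM in Pool 2 mice. The Control group held both the lowest and the highest of the 20 values, and its SD was the largest of the 4 groups.

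Igfbpl1 (ENSMUSG00000035551.6; chr4:45809468-45826923, minus strand) encodes a secreted protein related to insulin-like growth factor binding proteins and marks neuroblasts and immature neurons. Its levels in replicates 1 to 5 were 5.52, 4.11, 2.30, 4.17 and 3.72 CPM in Vehicle and 2.19, 4.40, 3.68, 3.50 and 7.34 CPM in Control mice. They were 2.99, 0.897, 1.5, 3.92 and 1.45 CPM in Pool 1 and 5.26, 4.95, 7.46, 2.96 and 1.76 CPM in Pool 2 mice. Pool 1 replicates 2, 3 and 5 lay below all Control and all Pool 2 mice, while Pool 1 replicates 1 and 4 lay within both ranges. Draxin (ENSMUSG00000029005.4; chr4:148098437-148130698, minus strand) encodes a secreted axon guidance protein that binds the netrin receptor Dcc. It had 1.04 ± 0.567 CPM in Vehicle, 1.42 ± 0.455 in Control, 1.29 ± 0.222 in Pool 1 and 1.78 ± 0.736 CPM in Pool 2 mice.

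**Figure D2:**
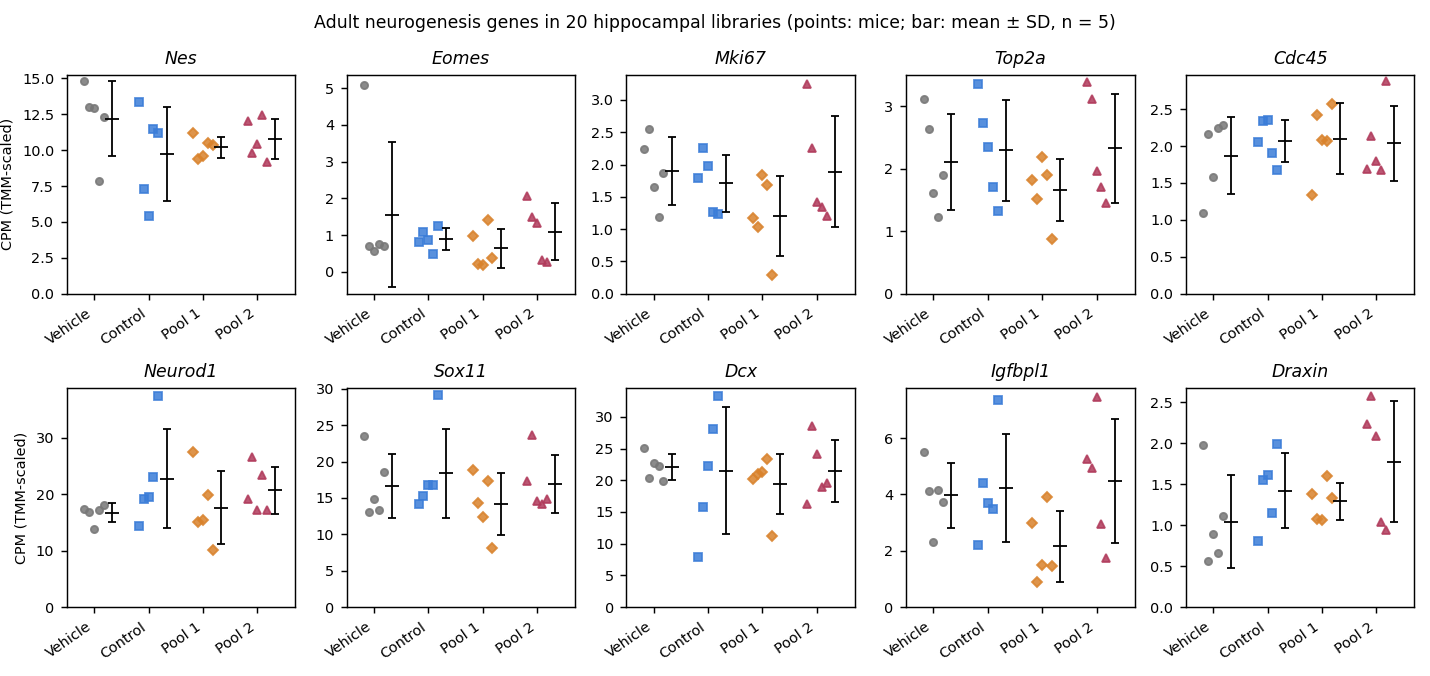
Level in CPM of the 10 genes in each of the 20 libraries by group, with a bar for the mean and SD of 5 mice (the SD bar of Eomes in Vehicle mice reaches below 0 because 1 mouse had 5.10 CPM). For Igfbpl1, 3 Pool 1 mice sit below all Control and all Pool 2 mice, and the groups of all 10 genes overlap.

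To see whether sRNAs of patients went with other levels of these genes than sRNAs of controls, Pool 1 and Pool 2 mice were compared with Control mice. In Pool 1 mice, 1 of the 10 genes, Igfbpl1, was past the study's threshold, a log2 fold change of 0.3 or more in size with an unadjusted p-value under 0.05 (edgeR's quasi-likelihood test). Igfbpl1 was lower in Pool 1 (2.15 ± 1.26 CPM) than in Control mice (4.22 ± 1.92 CPM), with a log2 fold change of -0.96 (SE 0.41, 95% interval -1.81 to -0.12). The edgeR p-value was 0.0280 and the adjusted p-value over all genes 0.917, so the call does not survive the correction for 25190 genes. An exact two-sided permutation test of its log2 CPM, whose smallest p-value with 5 mice against 5 is 0.00794, gave p = 0.0635. Of all genes, 1.99% were downregulated and 1.48% upregulated at the same threshold, beside 1 downregulated gene of 10 here.

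The other 9 genes did not pass the threshold in Pool 1 mice. Mki67 had a log2 fold change of -0.51 (SE 0.35), Top2a -0.47 (SE 0.30), Eomes -0.47 (SE 0.72), Sox11 -0.37 (SE 0.23) and Neurod1 -0.37 (SE 0.24). Dcx had -0.15 (SE 0.28), Draxin -0.14 (SE 0.33), Nes 0.07 (SE 0.19) and Cdc45 0.02 (SE 0.22). Their 95% intervals all held 0, and that of Mki67 ran from -1.23 to 0.21. The median log2 fold change of the 10 genes was -0.37, with 2 of 10 above 0, beside a median of -0.01 over all genes. Pool 1 replicate 5 was the lowest of the 20 libraries for Mki67, Top2a, Sox11 and Neurod1. It also had the lowest summed level of dentate granule cell markers, 416 CPM, and its part in this median was not tested. All 10 markers of dentate granule cells also had log2 fold changes under 0 in this comparison, with a median of -0.22 and none past the threshold, and the 5 CA1 markers had a median of 0.31. Of other marker lists, 0 of 7 choroid plexus markers were above 0 (median -1.41, 1 downregulated, Otx2), 0 of 5 thalamus markers (median -0.61, 1 downregulated, Zic1) and 1 of 8 reactive astrocyte markers (median -0.49, 1 downregulated, Gfap). Their part in the values of the 10 genes was not tested. A fit with the mean level of the dentate markers as a covariate was chosen after seeing the data. In it, Igfbpl1 had -0.87 and was past the threshold (adjusted p = 0.658, edgeR), and Dcx had 0.08. The call of Igfbpl1 was lost without Control replicate 5 (-0.67), Pool 1 replicate 2 (-0.77), Pool 1 replicate 3 (-0.86) or Pool 1 replicate 5 (-0.85).

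In Pool 2 mice, none of the 10 genes passed the threshold against Control mice, where 5.2% of all genes were upregulated and 1.01% downregulated. The 10 log2 fold changes ran from -0.14 (Neurod1, SE 0.24) to 0.32 (Draxin, SE 0.32), with a median of 0.05 beside 0.00 over all genes. Igfbpl1 had 0.08 (SE 0.39, 95% interval -0.73 to 0.90), Dcx 0.00 (SE 0.28, interval -0.58 to 0.58) and Eomes 0.29 (SE 0.69, interval -1.16 to 1.73). Mki67 had 0.14 (SE 0.34) and Top2a 0.02 (SE 0.30) over all libraries. Without Pool 2 replicate 1, the library with the most leukocyte and microglial RNA, Mki67 had -0.13, Top2a -0.15 and Eomes -0.06, none past the threshold.

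The difference between both pools was tested directly in Pool 2 against Pool 1 mice, which shares the Pool 1 mice with the first comparison and so is not independent of it. Igfbpl1 was again the 1 gene of 10 past the threshold, now higher in Pool 2 (4.48 ± 2.20 CPM), with a log2 fold change of 1.05 (SE 0.41, 95% interval 0.20 to 1.90). The edgeR p-value was 0.0179, the adjusted p-value 0.459 and the exact two-sided permutation p-value 0.0794, and 3 of the 5 Pool 2 mice lay above all Pool 1 mice. Of all genes, 5.66% were upregulated and 1.16% downregulated in Pool 2 against Pool 1 mice. Mki67 had 0.65 (SE 0.35, adjusted p = 0.637, edgeR), Eomes 0.76 (SE 0.71), Top2a 0.49 (SE 0.30) and Draxin 0.46 (SE 0.32), none past the threshold. The values of Sox11 (0.25), Neurod1 (0.23), Dcx (0.15), Nes (0.08) and Cdc45 (-0.04) were smaller. The median was 0.36, with 9 of 10 above 0, beside 0.02 over all genes.

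In this comparison too, lists of other markers had medians away from 0, in both directions. All 10 dentate granule cell markers had log2 fold changes above 0 (median 0.26, none past the threshold), 5 of 7 microglial markers were upregulated (median 0.47) and 6 of 7 leukocyte markers were upregulated (median 2.99). All 8 interferon response markers (median 1.51), all 5 thalamus markers (median 1.37) and 6 of 8 reactive astrocyte markers (median 1.24) were upregulated too, whereas 0 of 5 CA1 markers had a value above 0 (median -0.41, none past the threshold). With the dentate markers as a covariate, Igfbpl1 had 0.88 and was past the threshold (adjusted p = 0.453, edgeR), Neurod1 0.03, Sox11 0.05 and Dcx -0.13, while Mki67 had 0.71. Without Pool 2 replicate 1, Igfbpl1 was past the threshold at 0.99 (adjusted p = 0.879, edgeR) and Mki67 had 0.38 (adjusted p = 1, edgeR). Mki67 passed the threshold without Pool 1 replicate 3 (0.85), Pool 1 replicate 4 (0.81) or Pool 2 replicate 5 (0.78). Without Pool 2 replicate 4, the library with the most thalamus RNA, Igfbpl1 was past the threshold at 1.17 (adjusted p = 0.416, edgeR) and Mki67 had 0.76. The part of these other cells and tissues in the values of the 10 genes was not tested. Igfbpl1 lost its call without Pool 2 replicate 3 (0.79, adjusted p = 0.624, edgeR), its highest library.

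Control and Vehicle mice were compared to see whether infused human sRNAs as such went with other levels. None of the 10 genes passed the threshold, where 1.7% of all genes were upregulated and 3.41% downregulated. Neurod1 had a log2 fold change of 0.45 (SE 0.24, adjusted p = 0.762, edgeR) and Nes -0.32 (SE 0.19, adjusted p = 0.769, edgeR). Draxin had 0.44 (SE 0.33) and Eomes -0.81 (SE 0.68), and the value of Eomes rested on Vehicle replicate 1, without which it was 0.41. The other 6 ran from -0.15 (Mki67) to 0.15 (Cdc45), and the median was 0.11 beside -0.01 over all genes. Nes passed the threshold without Vehicle replicate 4 (-0.45), the library with the most choroid plexus RNA, and without Control replicate 1 (-0.46). Neurod1 passed it without Control replicate 1 (0.57) and Draxin without Vehicle replicate 1 (0.82).

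No gene of the 10 had an adjusted p-value under 0.05 in any comparison by edgeR or DESeq2. At an unadjusted p-value under 0.05 both tools had 1 of the 10 in Pool 1 against Control, 1 in Pool 2 against Pool 1 and 0 in the other comparisons. Over all genes, 0% had an adjusted p-value under 0.05 by edgeR in each comparison, while the unadjusted p-value was under 0.05 for 1314, 1939, 2146 and 1672 genes (Pool 1 and Pool 2 against Control, Pool 2 against Pool 1, Control against Vehicle). DESeq2 gave 7, 18, 115 and 0 genes under 0.05 after adjustment.

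**Figure D3:**
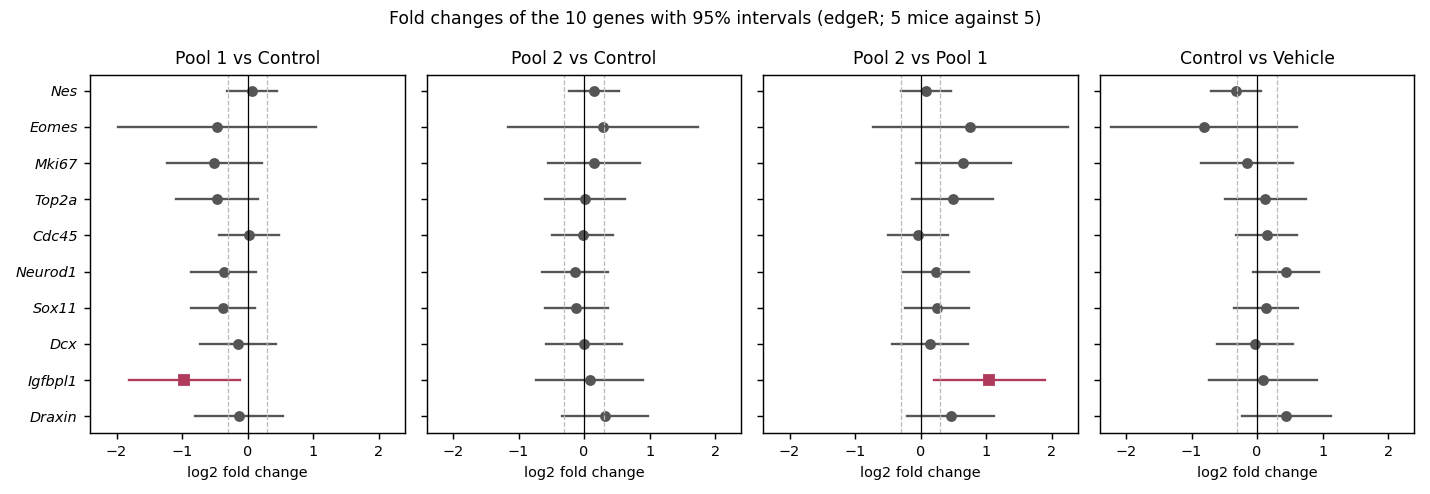
Log2 fold change of the 10 genes with its 95% interval in the 4 comparisons (edgeR, 5 mice against 5). Squares mark values past the threshold of 0.3 (dashed lines) with an unadjusted p-value under 0.05, which are those of Igfbpl1 in Pool 1 vs Control (-0.96) and Pool 2 vs Pool 1 (1.05), and all other intervals cross 0.

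Other genes of the same stages were read from 6 lists by role, with 93 of 94 further genes measured (all but Dkk1). The lists also held genes already described above, Igfbpl1 among them. Where a list held such genes, its counts and median include them and are not independent of their values above. Among stem cell genes, Hopx and Thrsp were higher in Control mice than in Pool 1 and Vehicle mice. Hopx, a homeodomain gene of quiescent stem cells and astrocytes, had 79.9 CPM in Control against 61.2 in Pool 1 and 62.4 in Vehicle mice, with log2 fold changes of -0.38 in Pool 1 against Control and 0.36 in Control against Vehicle. Thrsp, a regulator of fat synthesis in quiescent stem cells, had 33.7 CPM in Control, 27.0 in Pool 1 and 25.1 in Vehicle mice (-0.32 and 0.43). Both pairs of values share the Control mice and are not independent. In Pool 1 against Control, 1 of 8 reactive astrocyte markers was above 0 (median -0.49) and Gfap was downregulated (-0.49), and in Control against Vehicle their median was 0.06. Of 17 stem cell genes, 3 were downregulated in Pool 1, beside 1.99% of all genes (Hopx, Thrsp and Vnn1, the last at 0.10 against 0.272 CPM, near the floor), 0 passed the threshold in Pool 2 against Control, and Fabp7 (0.44) and Pax6 (0.30), both of radial glia-like cells and of astrocytes, were upregulated in Pool 2 against Pool 1, beside 5.66% of all genes and 6 of 8 reactive astrocyte markers. The part of astrocytes in these values was not tested. Fabp7 lost its call without Pool 2 replicate 4 (0.39, adjusted p = 0.662, edgeR) and Pax6 without Vehicle replicate 4 and Pool 2 replicate 1 (0.20, adjusted p = 0.943, edgeR). In Control against Vehicle mice, Notch2, a receptor that keeps stem cells quiescent, was downregulated (-0.31, or -0.20 and not past the threshold without those 2 libraries).

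Of 7 genes of intermediate progenitors, none passed the threshold against Control mice in either pool or in Control against Vehicle. Insm1, a zinc finger factor of progenitors that are about to become neurons, was downregulated in Pool 2 against Pool 1 mice (-0.48, 4.79 against 6.70 CPM). At this threshold 1.16% of all genes were downregulated. This was opposite in sign to Eomes (0.76), which did not pass. Of 20 genes of neuroblasts and immature neurons, 1 passed in Pool 1 against Control mice, where 1.99% of all genes were downregulated. It was Igfbpl1 (lower), already given above, so no further gene of this list passed there. In Pool 2 against Control mice 1 passed, Dlx6os1 (-0.43), a non-coding RNA of the Dlx locus better known from interneurons. There 1.01% of all genes were downregulated. In Pool 2 against Pool 1, where 5.66% of all genes were upregulated, Igfbpl1 and Calb2 (0.89; calretinin, made by young granule neurons and also by interneurons) were upregulated and Dlx6os1 was downregulated (-0.38). Calb2 lost its call without Pool 2 replicate 4 (0.83, adjusted p = 0.71, edgeR), and Dlx6os1 lost that in Pool 2 against Pool 1 without Vehicle replicate 4 and Pool 2 replicate 1 (-0.26, adjusted p = 0.901, edgeR). In Control against Vehicle, Tubb2b, a tubulin of young neurons, was upregulated (0.30), a call lost without the same 2 libraries (0.28). The list had a median of -0.12 in Pool 1, 0.02 in Pool 2, 0.14 in Pool 2 against Pool 1 and 0.12 in Control against Vehicle.

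Of 37 cell cycle genes, 1 was upregulated in Pool 1 and 1 in Pool 2 against Control mice, in both cases Mcm10, a replication initiation factor (0.71 and 1.03), where 1.48% and 5.2% of all genes were upregulated. Mcm10 was also 1 of the 2 genes downregulated in Control against Vehicle (-0.73), its mean being 0.405 CPM in Control and 0.669, 0.664 and 0.830 CPM in Vehicle, Pool 1 and Pool 2 mice. All these values of Mcm10 share the Control mice, which had 6 to 13 counts of it, and are not independent. The other gene downregulated in Control against Vehicle was Cdt1 (-0.53), which licenses replication origins, while Pcna, the sliding clamp of DNA polymerase, was upregulated (0.31). In that comparison 3.41% of all genes were downregulated and 1.7% upregulated. In Pool 2 against Pool 1, 5 of the 37 were upregulated and 0 downregulated, with a median of 0.17, beside 5.66% of all genes upregulated and 1.16% downregulated. They were the mitotic genes Cdk1 (0.89), Cdc20 (0.60) and Aurkb (1.39) and the S phase genes Mcm3 (0.40) and Tk1 (1.07), the last 2 being named after their values were seen. Cdk1, Cdc20, Aurkb and Tk1 had means of 0.146 to 1.04 CPM in these groups. Without Vehicle replicate 4 and Pool 2 replicate 1, the library with the highest Mki67, Cdk1 (0.80) and Cdc20 (0.59) were past the threshold, while Aurkb (1.02), Tk1 (0.75) and Mcm3 (0.22) were not, and neither was Mcm10 in Control against Vehicle (-0.66). Cdc20 was not past it without Pool 2 replicate 4 (0.55). Over all further listed genes, the count in Pool 2 against Pool 1 fell from 14 to 10 without Vehicle replicate 4 and Pool 2 replicate 1, 8 of them among the 14, and to 5 without Pool 1 replicate 3.

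Of 17 niche signals, Gli1, a Hedgehog target (0.74), and Jag1, a Notch ligand (0.54), were upregulated and Fgf2, a growth factor for stem cells (-0.43), was downregulated in Pool 2 against Control mice, where 5.2% of all genes were upregulated and 1.01% downregulated, and 0 passed in Pool 1. These 3 calls were lost without Pool 2 replicate 4, with values of 0.48, 0.50 and -0.38. In the same comparison 8 of 8 interferon response, 6 of 8 reactive astrocyte and 3 of 7 microglial markers were upregulated, and their part in these values was not tested. In Pool 2 against Pool 1, Igf2 (1.20), Bmp4 (0.57), Wnt3 (0.72) and Gli1 (0.67), all secreted signals or their targets, were upregulated, 4 of the 17 beside 5.66% of all genes, and in Control against Vehicle Igf2 was downregulated (-0.93). Wnt3 was highest in Pool 2 replicate 4, the library with the most thalamus RNA, with 7.64 CPM against at most 4.11 CPM in any other library, and without it Wnt3 had 0.29 and Gli1 0.41, neither past the threshold. The part of thalamus RNA in these values was not tested. Without Vehicle replicate 4 and Pool 2 replicate 1, Bmp4 lost its call (0.45), as did Igf2 in Control against Vehicle (-0.33), whereas Igf2 in Pool 2 against Pool 1 was past the threshold at 1.34. Igf2 is also made by the choroid plexus, whose markers had a median of 1.06 in Pool 2 against Pool 1 and -1.78 in Control against Vehicle. Their part in the values of Igf2 was not tested. Among 6 genes of the Draxin and netrin receptors, Ntn1, netrin itself, was upregulated in Pool 2 against Control (0.32, or 0.31 and not past the threshold without Pool 2 replicate 4), and no receptor passed in any comparison. The adjusted p-values (edgeR) of the listed genes over all libraries were 0.399 or above.

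Over the 20 libraries, several of the 10 genes varied together in pairs, and the pairs were linked with each other. Of 75 relations computed (45 between the genes, 30 with dentate markers, microglial markers and the total count), 13 had an adjusted permutation p-value under 0.05 for Pearson's r, 10 of them between the genes. All are given on log2 CPM over 20 libraries with two-sided permutation p-values, for which 1e-05 is the smallest that 100000 permutations can give. Libraries were permuted across groups, so differences between groups enter these p-values. Mki67 and Top2a had the closest relation, with r = 0.87 (permutation p = 1e-05, adjusted 0.00075) and rho = 0.87 (permutation p = 1e-05, adjusted 0.00075). Without Pool 1 replicate 5 and Pool 2 replicate 1, the libraries farthest from the median of Mki67, r was 0.83, and around the group means it was 0.87. Cdc45, the third cell cycle gene, had r = -0.27 with Mki67 (permutation p = 0.243, adjusted 0.424) and rho = -0.11 (permutation p = 0.629, adjusted 0.761), or r = -0.02 without the same 2 libraries.

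Eomes and Igfbpl1 varied together, with r = 0.79 (permutation p = 5e-05, adjusted 0.00125) and rho = 0.84 (permutation p = 2e-05, adjusted 0.00075), and r = 0.81 without Vehicle replicate 1 and Pool 1 replicate 3. Sox11 and Neurod1 had r = 0.80 (permutation p = 8e-05, adjusted 0.0015) and rho = 0.71 (permutation p = 0.00058, adjusted 0.00725), and r = 0.55 without Control replicate 5 and Pool 1 replicate 5. Dcx had r = 0.61 with Neurod1 (permutation p = 0.00634, adjusted 0.0396), but rho = 0.39 (permutation p = 0.0891, adjusted 0.231) and r = 0.46 without Control replicate 1 and Pool 1 replicate 5. Dcx had r = 0.61 with Sox11 too (permutation p = 0.00667, adjusted 0.0396), with rho = 0.46 (permutation p = 0.046, adjusted 0.135) and r = 0.58 without the same libraries.

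Other pairs joined these genes across stages. Sox11 had r = 0.63 with Eomes (permutation p = 0.00372, adjusted 0.031) and rho = 0.69 (permutation p = 0.00099, adjusted 0.0104), and r = 0.70 without Control replicate 5 and Pool 1 replicate 5. With Igfbpl1, Sox11 had r = 0.62 (permutation p = 0.00331, adjusted 0.031) and rho = 0.56 (permutation p = 0.0125, adjusted 0.0626), and r = 0.46 without them. Neurod1 and Igfbpl1 had r = 0.58 (permutation p = 0.00687, adjusted 0.0396) and rho = 0.52 (permutation p = 0.0212, adjusted 0.0838), and r = 0.39 without them. Eomes and Draxin had r = 0.61 (permutation p = 0.00368, adjusted 0.031) and rho = 0.72 (permutation p = 0.00048, adjusted 0.0072), and r = 0.62 without Vehicle replicate 1 and Pool 1 replicate 3. Eomes and Cdc45 went in opposite directions, with r = -0.60 (permutation p = 0.00566, adjusted 0.0396), but rho was -0.42 (permutation p = 0.0674, adjusted 0.181) and r was -0.40 without the same libraries. Draxin passed the adjusted threshold for rho, but not for r, with Sox11 and Igfbpl1. Sox11 and Draxin had r = 0.56 (permutation p = 0.0103, adjusted 0.0532) and rho = 0.69 (permutation p = 0.00111, adjusted 0.0104). Without Control replicate 5 and Pool 1 replicate 5, r was 0.71. Igfbpl1 and Draxin had r = 0.50 (permutation p = 0.0242, adjusted 0.101) and rho = 0.60 (permutation p = 0.00592, adjusted 0.0404). Without Pool 1 replicates 2 and 5, r was 0.60. Nes had no relation to the other genes that passed the adjusted threshold for r, and its strongest was with Cdc45, r = -0.57 (permutation p = 0.0106, adjusted 0.0532) and rho = -0.67 (permutation p = 0.00175, adjusted 0.0146).

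The dentate granule cell markers moved with Neurod1, Sox11 and Dcx. Their mean level had r = 0.76 with Neurod1 (permutation p = 4e-05, adjusted 0.00125) and rho = 0.73 (permutation p = 0.00035, adjusted 0.00656), r = 0.74 without Control replicate 4 and Pool 1 replicate 1. With Sox11 it had r = 0.68 (permutation p = 0.00075, adjusted 0.0112) and rho = 0.74 (permutation p = 0.00025, adjusted 0.00625), and r = 0.78 without the same libraries. With Dcx it had r = 0.64 (permutation p = 0.00204, adjusted 0.0255) and rho = 0.54 (permutation p = 0.0155, adjusted 0.0686), and r = 0.71 without them. With Igfbpl1 it had r = 0.44 (permutation p = 0.0489, adjusted 0.136) and rho = 0.42 (permutation p = 0.0626, adjusted 0.174), and r = 0.58 without them. With Draxin it had r = 0.39 (permutation p = 0.0879, adjusted 0.213) and rho = 0.45 (permutation p = 0.0468, adjusted 0.135), and r = 0.53 without them. With Mki67 it had r = 0.11 (permutation p = 0.663, adjusted 0.79) and rho = 0.01 (permutation p = 0.982, adjusted 0.988), and r = 0.28 without them.

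The microglial markers passed the adjusted threshold for rho, but not for r, with 3 of the 10 genes. They had r = 0.50 with Igfbpl1 (permutation p = 0.0261, adjusted 0.101) and rho = 0.66 (permutation p = 0.0022, adjusted 0.0165), and r = 0.58 without Pool 2 replicate 1 and Vehicle replicate 5. With Eomes they had r = 0.52 (permutation p = 0.0226, adjusted 0.0995) and rho = 0.60 (permutation p = 0.00646, adjusted 0.0404), and r = 0.55 without them. They had r = 0.52 with Mki67 (permutation p = 0.0406, adjusted 0.117) and rho = 0.58 (permutation p = 0.00851, adjusted 0.0491), and r = 0.39 without them. Around the group means, r of the microglial markers was 0.36 with Igfbpl1, 0.48 with Eomes and 0.42 with Mki67. The total count had r between -0.19 (Mki67) and 0.16 (Dcx) with the 10 genes.

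**Figure D4:**
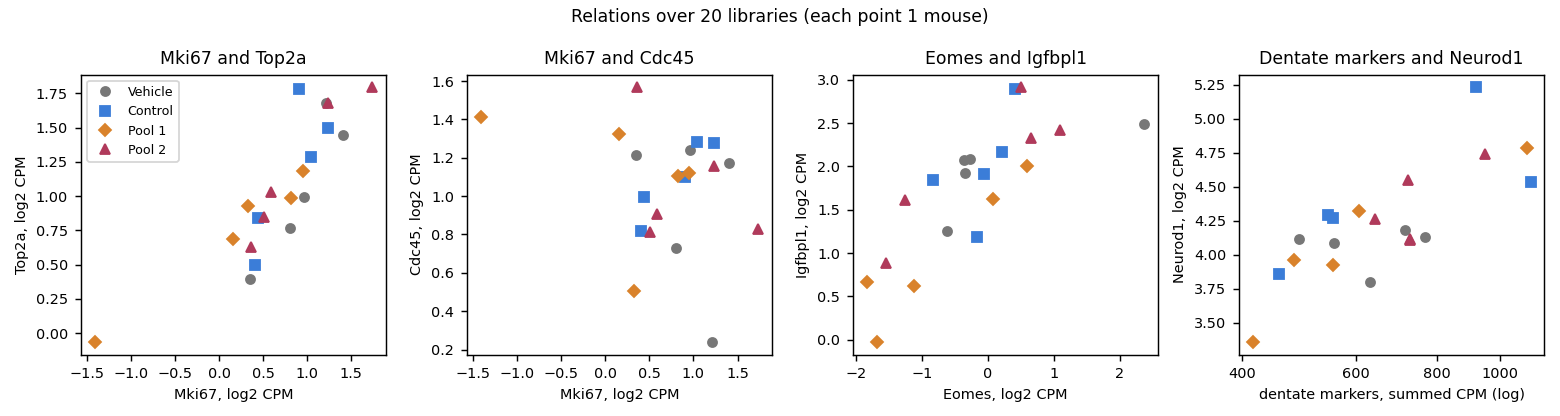
Relations over the 20 libraries, each point 1 mouse: Top2a, then Cdc45, against Mki67, Igfbpl1 against Eomes (log2 CPM) and Neurod1 (log2 CPM) against the summed level of 10 dentate granule cell markers (CPM, log axis). Mki67 and Top2a rise together (r = 0.87), Mki67 and Cdc45 do not (r = -0.27), and Neurod1 is highest where dentate markers are high (r = 0.76 with their mean log2 level).

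Among 14796 genes with a mean of at least 1 CPM, the gene most like Mki67 over the 20 libraries was Top2a (r = 0.87), followed by Gm8995 (0.84), Resf1 (0.82), Slfn9 (0.80) and Hpgds (0.79). Without Pool 1 replicate 5 and Pool 2 replicate 1, Top2a kept r = 0.83 and Slfn9 r = 0.80, whereas Gm8995, Resf1 and Hpgds had 0.47, 0.41 and 0.47. The genes most like Dcx were Hecw1 (0.89), 6820431F20Rik (0.89), Cd47 (0.88), Gm37928 (0.88) and Celf1 (0.88), none of them among the listed genes of neurogenesis. These genes are far more abundant in part, Celf1 having a mean of 243.0 CPM and Cd47 of 144 CPM, and without Control replicate 1 and Pool 1 replicate 5 their r lay between 0.60 and 0.74. These correlations were picked as the highest of many and are given as a description without a test.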

How the data were processed

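Bulk RNA was sequenced from mouse hippocampus in 20 libraries, 5 per group as labelled. The authors made stranded poly(A) libraries, aligned single-end reads with STAR to mm10 and deposited raw counts per gene, without normalization and with the sequencing rounds of a library summed. The submitters' processing notes also name FastQC 0.11.5. Genes with low summed counts had been left out, the smallest sum being 10. All 10 genes had the same position in GENCODE M21, which gave exon lengths.

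The genes and the gene lists (6 by role, 12 of cell markers) were chosen with earlier results of these data known. The main test was the quasi-likelihood test of edgeR 4.0.16 (R 4.3.3; glmQLFit, robust, then glmQLFTest) on counts with TMM factors. All 4 groups entered 1 model over 25190 genes, with Benjamini-Hochberg adjustment over all of them. CPM used the TMM factors, and log2 CPM a prior count of 2. Each group shares its spread with the others through the fit. A gene was called at the study's threshold, a log2 fold change of 0.3 or more in size with p under 0.05. Exact permutation tests of single genes were two-sided. Relations over libraries used 100000 permutations and were adjusted over 75 relations. The text names all 10 genes in every comparison, of other listed genes up to 3 per list and comparison with the smallest p-values past the threshold (exceptions are stated), and the 5 genes most like Dcx and Mki67.

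The alternatives were DESeq2 1.42.0, its size factors in edgeR, a mean normalized count of at least 10, filterByExpr, fits of the compared groups alone, the replicate number as a block, the default estimate of the spread, 18 libraries (without Vehicle replicate 4 and Pool 2 replicate 1, which an earlier analysis of these data had singled out), and each library left out in turn. The dentate marker covariate, and all settings for the other listed genes (values without Vehicle replicate 4 and Pool 2 replicate 1, or without Pool 2 replicate 4, included), were chosen after seeing the data. Among the 40 pairs of replicates within a group, chi-square divided by its degrees of freedom was 8.23 to 66.8, so none was counted as 1 library. Promoter windows were read from a RefSeq table (GRCm38.p6), which had entries for 9 of the 10 genes. Steps across all genes were tested on simulated data.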

Additional observations from a re-analysis of the deposited data

Results flagged for a closer look

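In 4 of the 40 groups of 5 libraries tested for the 10 genes, 1 library stood apart from the other 4 by Dixon's test (chance alone flags about 1 in 20 groups). Eomes, the factor of intermediate progenitors, had 5.10 CPM in Vehicle replicate 1, against 0.565 to 0.746 CPM in the other Vehicle mice. Sox11 had 29.1 CPM in Control replicate 5, against 14.1 to 16.8 CPM, and Dcx had 11.2 CPM in Pool 1 replicate 5, against 20.1 to 23.4 CPM. Neurod1 had 13.8 CPM in Vehicle replicate 3, against 16.9 to 18.1 CPM.

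The effects of the pools on Igfbpl1 differed by a log2 fold change of 1.05 in Pool 2 against Pool 1 mice (adjusted p = 0.459, edgeR), the 1 gene of 10 for which the test of the difference passed the study's threshold. It was higher in 3 of 5 Pool 2 mice than in every Pool 1 mouse and did not pass after adjustment.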

How the results depend on the processing

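Over 19 alternatives each, Igfbpl1 was called in 15 in Pool 1 against Control (adjusted p 0.627 to 0.999, edgeR or DESeq2) and in 18 in Pool 2 against Pool 1 (0.235 to 0.879), always in the same direction, and every lost call came from leaving out 1 mouse. Of the values of single genes under all alternatives, 684 kept direction and side of the threshold, 60 changed sign, 11 gained the call and 5 lost it, and each that changed sign had not been called. The cause of these changes was not tested. The deviations of same-numbered libraries correlated over genes by -0.381 to 0.301, with 7 of 20 correlations over 0.1 and not every pair of any comparison, so a pairing was not taken as shown. With the replicate number as a block, the count of the 10 genes called changed in no comparison, Cdc45 in Pool 1 against Control was -0.018, and the other listed genes called in Control against Vehicle fell from 8 to 5. Low counts of Eomes, Mki67, Draxin, Top2a and Cdc45, and of Igfbpl1 in Pool 1 mice (20 to 91), limit the precision of their values.

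Dcx in Pool 2 against Control, 0.0009 over all libraries, was -0.0090 with DESeq2, -0.0085 with its size factors, -0.017 with filterByExpr, -0.026 with the compared groups alone and -0.046 with the dentate covariate, and Top2a there was -0.0090 with the compared groups alone. Over 18 libraries, Eomes (-0.057), Mki67 (-0.13), Top2a (-0.15) and Cdc45 (0.036) changed sign in Pool 2 against Control, as did Cdc45 in Pool 2 against Pool 1 (0.016) and Top2a in Control against Vehicle (-0.017). With the dentate covariate, Dcx and Cdc45 changed sign in Pool 1 against Control (0.081 and -0.072) and in Pool 2 against Pool 1 (-0.13 and 0.12), and Cdc45 in Pool 2 against Control (0.052). In Control against Vehicle, 1 of the 10 genes was called with the compared groups alone, with 18 libraries and with the covariate, and 5 other listed genes with the compared groups alone and with 18 libraries. In Pool 1 against Control, the covariate gave 7 other listed genes, against 4.

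Leaving out each library in turn gave 0 to 2 of the 10 genes called in Pool 1 against Control, in Pool 2 against Pool 1 and in Control against Vehicle. The other listed genes numbered 3 to 9 in Pool 1 against Control (9 without Control replicate 4 or Pool 1 replicate 1), 3 to 8 in Pool 2 against Control (3 without Control replicate 3), 5 to 13 in Pool 2 against Pool 1 (5 without Pool 1 replicate 3, 8 without Pool 1 replicate 2 or Pool 2 replicate 2, 9 without Pool 2 replicate 4) and 2 to 9 in Control against Vehicle (2 without Control replicate 1, 3 without Control replicate 2, 4 without Vehicle replicate 1 or 2, 5 without Vehicle replicate 4). In Pool 1 against Control, the log2 fold change of Dcx ranged from -0.36 to 0.066, Draxin from -0.28 to 0.013, Nes from -0.080 to 0.21 and Cdc45 from -0.066 to 0.15. In Pool 2 against Control, Dcx ranged from -0.21 to 0.21, Sox11 from -0.27 to 0.11, Neurod1 from -0.26 to 0.12, Eomes from -0.058 to 0.54, Igfbpl1 from -0.18 to 0.38, Nes from -0.0031 to 0.29, Mki67 from -0.13 to 0.27, Top2a from -0.15 to 0.19 and Cdc45 from -0.18 to 0.041. In Pool 2 against Pool 1, Cdc45 ranged from -0.20 to 0.044. In Control against Vehicle, Dcx ranged from -0.25 to 0.17, Sox11 from -0.086 to 0.30, Eomes from -1.02 to 0.41, Igfbpl1 from -0.20 to 0.25 and Top2a from -0.050 to 0.32.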

Other observations

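Dlx2, Dlx5, Sp8 and Sp9, listed as markers of neuroblasts of the subventricular zone and olfactory stream, had a summed level of 8.36 to 19.2 CPM. Of these 4 genes, 1 was downregulated in Pool 2 against Control (Dlx5, log2 fold change -0.55) and 1 in Pool 2 against Pool 1 mice (Dlx2, -0.42), with medians of -0.33 and -0.34. At this threshold 1.01% and 1.16% of all genes were downregulated. The adjusted p-values (edgeR) of Dlx5 and Dlx2 were 0.504 and 0.515, so neither call survived the correction. In both comparisons all 4 had log2 fold changes under 0. Dlx6os1, of the Dlx locus and better known from interneurons, was downregulated in Pool 2 against Control (-0.43) and Pool 1 mice (-0.38). The part of interneurons in the values of the 4 genes was not tested. The library with the highest summed level of the 4 genes was Control replicate 1, which had the lowest Dcx level of the 20 (7.91 CPM). The lowest was Pool 2 replicate 1.

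Markers of oligodendrocyte precursors, which also divide in the adult hippocampus, had summed levels of 111 to 163 CPM. Of these 4 genes 1 was upregulated, Cspg4 in Pool 2 against Control mice (0.35), where 5.2% of all genes were upregulated. In the same comparison all 5 endothelium and pericyte markers were above 0 (median 0.32), with Pecam1 (0.51) and Pdgfrb (0.36) upregulated. The part of vascular cells in the value of Cspg4 was not tested. The medians of the precursor markers were 0.20 in Pool 1 and 0.17 in Pool 2 against Control, 0.03 in Pool 2 against Pool 1 and -0.16 in Control against Vehicle mice.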
